A study of Mus musculus with 19 samples.

Results

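Arg1, Arg2, Ass1, Asl, Gatm, Odc1, Srm, Sms and Sat1 encode enzymes that make and use arginine, creatine and polyamines. They were chosen by gene symbol, with no measured value in the rule, though earlier results of these data were known. They are 9 of the 19287 entries in the deposited expression table. Whole-kidney RNA of male mice of the inbred strain C57BL/6 was sequenced in 19 libraries. The study asked, per its title, about a probiotic strain in kidney disease.

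The sham group (5 libraries) was sham-operated, and no gavage is given for it. The IR group (5 libraries) had ischemia-reperfusion, in which the blood flow of the kidney is stopped for a time and restored, and no gavage is given for it either. Mice of the IRLacz group (4 libraries) received Lactobacillus casei Zhang by mouth for 4 weeks before the same injury, and those of the IRLac group (5 libraries) another strain. That strain was taken by elimination to be Lactobacillus acidophilus, since the abbreviation in the design text is a letter off. Injured mice were killed on day 5. Because no mock gavage is stated, bacteria and gavage itself cannot be told apart where a gavage group is compared with IR or sham. Both gavage groups received bacteria, so their direct comparison sets the strains against each other. The time at which sham kidneys were taken is not given in the sources used here. Whether the libraries are from separate mice is not stated, so p-values measure the spread between these libraries, which may be technical.

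Arginine is built in the kidney from citrulline that arrives with the blood. Argininosuccinate synthase (Ass1) joins citrulline to aspartate, and argininosuccinate lyase (Asl) splits the product into arginine and fumarate, mainly in the proximal tubule. Arginine then has several fates. Arginases (Arg1, Arg2) split it into ornithine and urea, and glycine amidinotransferase (Gatm) takes part of it for guanidinoacetate, the precursor of creatine. Ornithine decarboxylase (Odc1) turns ornithine into putrescine, from which spermidine synthase (Srm) and spermine synthase (Sms) build the larger polyamines. Spermidine/spermine acetyltransferase (Sat1) marks polyamines for breakdown or export.

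Values are FPKM, fragments scaled by gene length and library size, so levels of different genes can be set side by side. Read depth is unknown: low values moved in steps too blurred to recover reads, with 34.7% of 554 values within 0.1 step of a whole step where 20% would be without steps. Between 11988 and 13283 entries reached 1 FPKM in a library. The defining kidney markers Lrp2, Umod, Slc12a3, Aqp2 and Nphs1 were detected in every group. On the first principal component, with 75.5% of the variance, sham libraries lay between -70.3 and -64.7 and IR libraries between 20.9 and 39. IRLacz replicate 1 (-20.9) and IRLac replicate 3 (0.4) stood apart from the rest of their groups, towards sham, and results that turn on them are given with and without them. Differences are given after log2(FPKM + 1) transformation, where low genes appear to change less than they do, and a gene is called changed when its limma p-value, adjusted over 13594 tested entries, was under 0.05. All 9 enzymes passed the filter of at least 1 FPKM in at least 4 libraries, Arg1 only through the injured groups.

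Promoter sequences from RefSeq (GRCm38.p6) were found for 5 of the 9 genes: Ass1, Gatm, Odc1, Sms and Sat1. The last 120 bases before the start site are printed for the 3 enzymes with the largest falls after injury and for Sat1, which rose, because these genes carry the contrast described below. Capitals mark GC boxes (GGGCGG, or CCGCCC on the other strand), E-boxes (CACGTG) and CCAAT boxes (CCAAT, or ATTGG on the other strand). The E-box letters read the same on both strands, and no match overlapped another in these 4 promoters.
Odc1, chr12:17544753-17544872, plus strand: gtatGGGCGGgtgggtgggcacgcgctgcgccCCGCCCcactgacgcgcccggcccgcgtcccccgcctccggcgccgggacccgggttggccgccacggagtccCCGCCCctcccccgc
Ass1, chr2:31470150-31470269, plus strand: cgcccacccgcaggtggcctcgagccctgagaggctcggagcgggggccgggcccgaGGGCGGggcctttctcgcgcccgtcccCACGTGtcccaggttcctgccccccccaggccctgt
Gatm, chr2:122611278-122611397, minus strand: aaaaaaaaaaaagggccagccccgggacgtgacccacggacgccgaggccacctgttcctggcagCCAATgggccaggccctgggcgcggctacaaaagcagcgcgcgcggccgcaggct
Sat1, chrX:155216450-155216569, minus strand: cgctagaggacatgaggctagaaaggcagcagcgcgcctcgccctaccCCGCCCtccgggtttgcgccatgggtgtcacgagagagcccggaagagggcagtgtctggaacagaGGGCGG
Searched over 250 bases before the start site, Odc1 held 4 GC boxes, Sat1 held 2, and Ass1 held 1 GC box and 1 E-box. Gatm held 2 CCAAT boxes and no GC box. Over all 32851 RefSeq promoters of that length, 32.7% held a GC box, 6.02% an E-box and 33.8% a CCAAT box. These are matches of letters only. The 3 genes that fell shared none of the searched motifs that Sat1 lacked.

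Injury was compared first, as IR against sham. Arg2, Srm and Sat1 rose, and Odc1, Ass1, Gatm, Sms and Asl fell. Arg1, near 0 in sham, passed the filter on low values only through the injured groups, so it had to differ from sham and is given as values only. The other 8 enzymes were all called, 3 higher and 5 lower. Over all entries 75.6% were called in this comparison (57% higher and 18.6% lower), so a call by itself sets no gene apart here. The IR and sham libraries did not overlap in any of the 8, as in 63.8% of all entries. The median difference over the 8 enzymes was -0.39, against 0.29 over all entries. That overall shift depended on the scaling: 7747 entries were higher and 2529 lower as deposited, against 4764 and 4794 with median-ratio scaling (median 0.00375) and 4356 and 5200 with quantile scaling (median -0.0501). Each of the 8 enzymes kept its direction and its call under both of these and as TPM, but sizes moved. With median-ratio scaling the rises were smaller and the falls larger than as deposited. Sat1 was then at 0.25 (0.59 as deposited), Srm at 0.43 (0.76) and Asl at -0.61 (-0.27). With quantile scaling Sat1 was at 0.75.

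**Figure D1:**
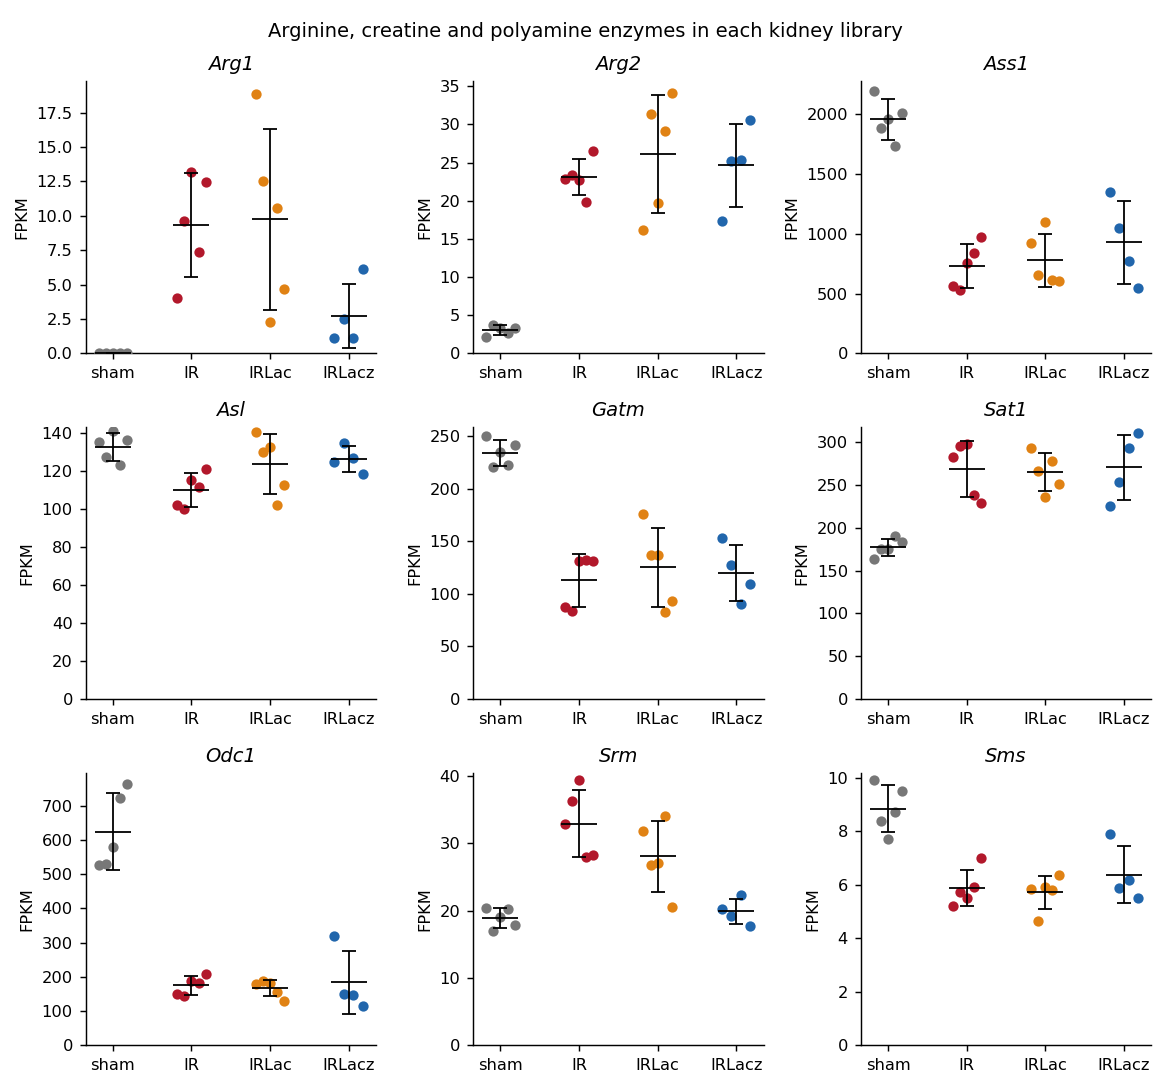
FPKM of each enzyme (vertical axis, from 0) in every library of the sham, IR, IRLac and IRLacz groups. The wide bar is the mean and the whiskers are 1 SD. Sham points lie apart from the IR points in every panel, and IRLacz points lie below the IR points for Srm.

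Both arginase genes were low in sham. Arg1, the cytosolic arginase of liver and of some macrophages, was listed at 0.00, 0.05, 0.05, 0.00 and 0.05 FPKM in the sham libraries and at 4.02, 9.60, 13.21, 7.40 and 12.48 FPKM in the IR libraries. All 5 IR libraries lay above the sham libraries. No fold is given against a group at or near 0, and the log2 difference of 3.23 (SE 0.42) is given without a test.

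Arg2, the mitochondrial arginase that the kidney itself expresses, lay at 2.15, 3.77, 3.29, 2.60 and 3.32 FPKM in sham and at 22.83, 23.43, 22.69, 19.89 and 26.54 FPKM in IR. The lowest IR library was thus far above the highest sham library. Arg2 rose 7.63-fold in FPKM (log2 difference 2.59, SE 0.18, limma adjusted p = 1.1e-09). Of the pair, Arg2 stayed the higher in every IR library, with an Arg2 to Arg1 ratio of 1.72 to 5.68 (median 2.44).

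The enzymes of arginine synthesis fell by unequal amounts. Ass1 was the most abundant of the 9 in every group, with 2193.22, 1884.08, 1962.94, 1730.10 and 2005.63 FPKM in sham and 565.72, 526.80, 756.63, 836.56 and 969.08 FPKM in IR. The highest IR library lay well below the lowest sham library. The IR mean was 0.374 of the sham mean (log2 difference -1.45, SE 0.22, limma adjusted p = 1.2e-05).

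Asl, the next step, changed little beside it, with 135.74, 127.48, 141.41, 123.47 and 136.61 FPKM in sham and 102.38, 100.18, 115.63, 111.89 and 121.20 FPKM in IR. The groups touched closely without overlapping (121.20 against 123.47 FPKM). The log2 difference was -0.27 (SE 0.08, limma adjusted p = 0.005), or -0.61 with median-ratio scaling. Within a library the Ass1 to Asl ratio was 13.9 to 16.2 in sham and 5.26 to 8.0 in IR, so the step that uses citrulline lost more of its RNA than the step that releases arginine.

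Gatm, which commits arginine to creatine, lay at 250.33, 220.93, 234.37, 222.05 and 241.85 FPKM in sham and at 87.70, 83.56, 131.04, 132.04 and 130.84 FPKM in IR. Within IR, replicates 1 and 2 were low and the other three close together, all below sham. The IR mean was 0.483 of the sham mean (log2 difference -1.07, SE 0.19, limma adjusted p = 5e-05). Against Arg2, whose product also uses arginine, Gatm went from 58.6 to 116.0 times its level in sham to 3.57 to 6.64 times in IR. Whole-kidney RNA does not show whether both are in the same cells.

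Odc1, the entry to polyamines, showed the largest fall of the 9. It lay at 526.79, 529.57, 580.59, 724.30 and 764.63 FPKM in sham and at 149.33, 143.28, 188.72, 181.51 and 208.43 FPKM in IR. Sham values were themselves spread, yet the lowest exceeded every IR value. The IR mean was 0.279 of the sham mean (log2 difference -1.83, SE 0.2, limma adjusted p = 3.1e-07).

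Srm and Sms, the synthases that follow, moved in opposite directions. Srm lay at 20.45, 17.02, 19.10, 20.29 and 17.86 FPKM in sham and at 32.82, 36.31, 39.41, 27.91 and 28.27 FPKM in IR, a 1.74-fold rise (log2 difference 0.76, SE 0.12, limma adjusted p = 1.3e-05). Sms lay at 9.94, 8.38, 7.73, 8.72 and 9.52 FPKM in sham and at 5.21, 5.74, 5.50, 5.93 and 7.01 FPKM in IR (log2 difference -0.52, SE 0.1, limma adjusted p = 8e-05). Neither gene had overlapping groups. The Sms to Srm ratio in a library was 0.405 to 0.533 in sham and 0.14 to 0.248 in IR.

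Sat1, on the breakdown side, lay at 163.41, 175.44, 174.70, 189.81 and 183.77 FPKM in sham and at 282.62, 295.56, 297.34, 238.54 and 228.95 FPKM in IR. All 5 IR libraries were above all sham libraries, and replicates 4 and 5 were the lowest of these 5. The rise was 1.51-fold (log2 difference 0.59, SE 0.09, limma adjusted p = 1.7e-05). Beside the fall of Odc1, this turned the order of the pair: the Sat1 to Odc1 ratio was 0.24 to 0.331 in sham and 1.1 to 2.06 in IR, above 1 in 5 of 5 libraries.

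**Figure D2:**
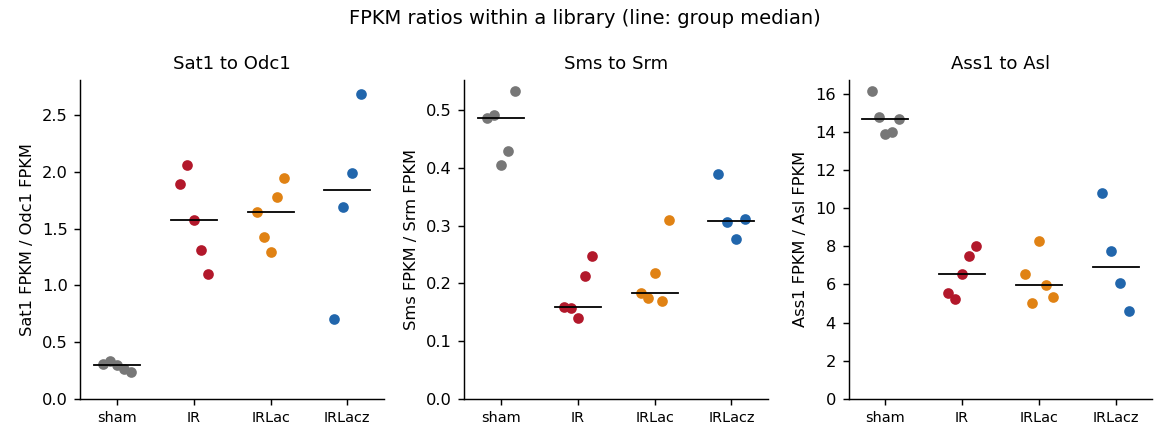
FPKM ratio of a pair of enzymes within a library (vertical axis, from 0), by group, with a line at the group median. Sham libraries are separate from IR libraries in all 3 panels, and for Sms to Srm the IRLacz libraries (0.278 to 0.39) lie between IR and sham.

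The order of levels changed accordingly. In sham it ran Ass1, Odc1, Gatm, Sat1, Asl, Srm, Sms, Arg2, Arg1, and no neighbours overlapped. In IR it ran Ass1, Sat1, Odc1, Gatm, Asl, Srm, Arg2, Arg1, Sms, where Gatm and Asl overlapped, as did Arg1 and Sms. IRLac kept the IR order with more overlaps. In IRLacz Arg1 (mean 2.715 FPKM) was the lowest, below Sms in 3 of 4 libraries. There Arg2 stood above Srm and Asl above Gatm, in 3 of 4 libraries each.

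Marker genes of kidney cell types moved with these results. The summed level of 8 markers of the early proximal tubule, where Ass1 and Gatm are known to be expressed, was 3627.55 to 4131.83 FPKM in sham and 1258.7 to 1950.93 FPKM in IR, and 8 of 8 fell. For 6 markers of its last segment the sums were 1110.73 to 1394.45 and 101.95 to 303.46 FPKM, and 5 of 6 fell. In whole-kidney RNA, fewer cells of a type and less RNA per cell cannot be told apart. Beside Arg1, the sum of 10 macrophage markers was 103.31 to 138.21 FPKM in sham and 1358.43 to 1924.6 FPKM in IR, and 10 of 10 rose. Of these, Itgam was at most 0.48 FPKM in sham and passed the filter only through the injured groups, which favoured its rise. Beside these marker counts, 57% of all entries were called higher and 18.6% lower. Liver markers summed to 33.5 to 39.99 FPKM in sham and 16.63 to 22.42 FPKM in IR, with Ahsg at 0 in all sham libraries. Neutrophil markers summed to at most 2.99 FPKM in sham and 10.99 to 16.63 FPKM in IR, with Elane at 0 in both groups. The part of these cells in the enzymes' differences was not tested.

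**Figure D3:**
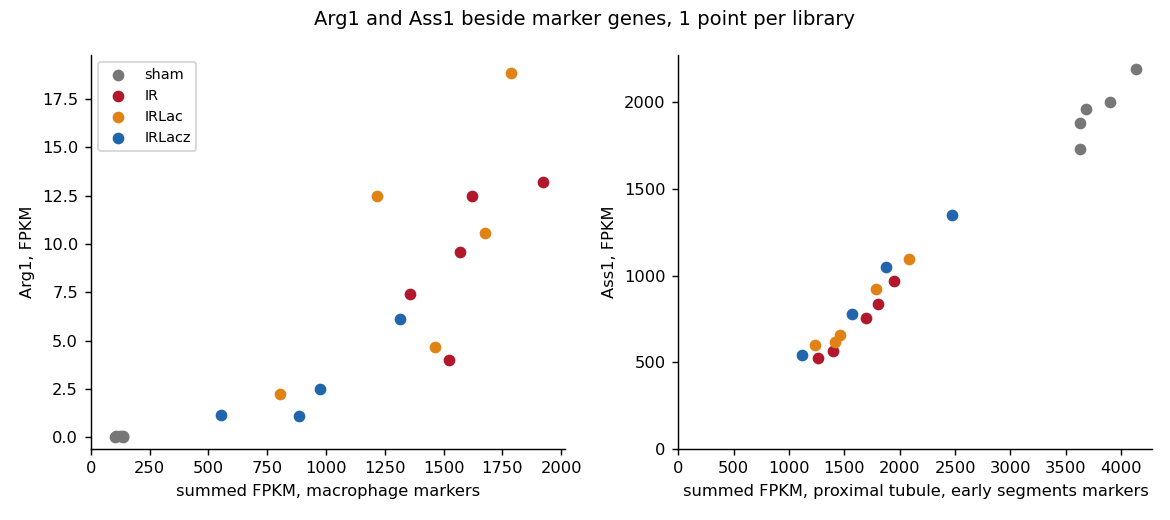
Each point is a library; left, Arg1 FPKM against the summed FPKM of 10 macrophage markers, and right, Ass1 FPKM against that of 8 early proximal tubule markers. IRLacz libraries with Arg1 of 1.11 to 2.51 FPKM have macrophage sums of 552.25 to 975.66 FPKM, below every IR library (1358.43 to 1924.6 FPKM). IRLacz replicate 4 also has a sum below every IR library (1313.68 FPKM), but its Arg1 of 6.1 FPKM is above that of IR replicate 1 (4.02 FPKM, sum 1522.72 FPKM).

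Other genes of the pathway were read from lists. Among 12 tested genes of arginine, ornithine and proline metabolism, 4 rose, 4 fell and 4 were not called (median 0.1, against 0.29 over all entries). Over all entries 57% were called higher and 18.6% lower. Aldh18a1, which makes the precursor of proline and ornithine from glutamate, rose from 1.188 ± 0.212 to 7.422 ± 0.758 FPKM (SD, n = 5 each; log2 difference 1.95, limma adjusted p = 9.4e-10). Ddah2 and Ddah1 both encode enzymes that break down methylated arginine, an inhibitor of nitric oxide synthase, and they went opposite ways: Ddah2 rose from 14.12 ± 1.19 to 43.81 ± 3.73 FPKM and Ddah1 fell from 94.3 ± 2.96 to 50.19 ± 5.98 FPKM. Prodh, which starts proline breakdown, fell from 134.4 ± 26.1 to 66.15 ± 17.9 FPKM (adjusted p = 0.00019). Agmat, for the enzyme that splits agmatine into putrescine and urea, fell from 3.054 ± 0.533 to 1.654 ± 0.0907 FPKM. Oat, ornithine aminotransferase, was not called (82.37 ± 8.36 FPKM in sham, 91.9 ± 5.45 FPKM in IR, adjusted p = 0.07). Nos2, the inducible nitric oxide synthase, was too low to be tested (0.152 ± 0.0466 FPKM in sham and 0.708 ± 0.212 FPKM in IR).

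Carriers of arginine and ornithine also divided, with 3 of 9 higher and 4 lower (median -0.16), beside 57% and 18.6% of all entries. Those that rose were the cationic amino acid transporter genes Slc7a1 (1.998 ± 0.35 to 6.186 ± 0.698 FPKM) and Slc7a2 (0.76 ± 0.12 to 4.25 ± 0.52 FPKM) and the exchanger gene Slc7a6 (1.28 ± 0.357 to 5.35 ± 0.592 FPKM). Slc7a2 was at most 0.97 FPKM in sham and, like Arg1, passed the filter only through the injured groups. The filter thus favoured its rise, and its call is not taken as support. The partners that take up cystine and dibasic amino acids at the tubule's luminal face fell: Slc3a1 from 301.9 ± 15.4 to 148.6 ± 21.1 FPKM (log2 difference -1.03, limma adjusted p = 2.6e-06) and Slc7a9 from 59.66 ± 4.43 to 43.2 ± 6.89 FPKM (adjusted p = 0.00077). The mitochondrial carriers Slc25a15, for ornithine, and Slc25a29 fell too, the first from 54.08 ± 2.76 to 28.63 ± 2.32 FPKM.

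Of 4 tested creatine genes 2 fell, where 18.6% of all entries did, and 2 were not called (median -0.4). Gamt, the methyltransferase that completes creatine after Gatm, fell from 26.09 ± 3.93 to 15.69 ± 2.26 FPKM (adjusted p = 0.0013), and the brain-type creatine kinase gene Ckb from 193 ± 44.1 to 115.8 ± 22.8 FPKM (adjusted p = 0.026). The call of Ckb was lost with quantile scaling (adjusted p = 0.063) and without sham replicate 3, sham replicate 4 or IR replicate 3 (0.07, 0.053 and 0.073). The creatine transporter gene Slc6a8 lay at 71.14 ± 3.66 against 73.09 ± 3.2 FPKM (adjusted p = 0.57).

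Of 12 tested polyamine genes outside the 9, 6 rose and 3 fell (median 0.37), beside 57% and 18.6% of all entries (median 0.29). Breakdown enzymes made up several of the rises. Aoc1, diamine oxidase, which oxidises putrescine, was at 0.78, 1.50, 2.03, 1.44 and 1.19 FPKM in sham and at 86.14, 76.71, 46.28, 62.11 and 71.28 FPKM in IR. The groups lay far apart, at a log2 difference of 4.85 (adjusted p = 5.7e-10 by limma, SE 0.31). Smox, spermine oxidase, rose from 4.382 ± 0.407 to 22.43 ± 2.99 FPKM, and Paox, which oxidises the acetylated forms that Sat1 makes, from 5.302 ± 0.932 to 10.6 ± 1.76 FPKM. Amd1, whose product supplies the aminopropyl groups that Srm and Sms use, rose from 17.95 ± 1.89 to 28.2 ± 3.41 FPKM (adjusted p = 3.4e-06), with a near-identical copy, Amd2, that makes its value uncertain. Mtap and the lysosomal polyamine transporter gene Atp13a2 rose as well. Sat2, a relative of Sat1, fell from 12.87 ± 1.16 to 8.606 ± 1.4 FPKM, and the antizyme genes Oaz1 and Oaz2, whose products bind ornithine decarboxylase and send it for degradation, fell by 0.19 and 0.21 on the log2 scale (adjusted p = 0.027 and 0.0015). The call of Oaz1 was lost without sham replicate 3 or IR replicate 4 (adjusted p = 0.067 and 0.082).

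Spermidine is also spent on hypusine, a modified residue of the translation factor eIF5A. All 4 genes of this step were called higher: Dhps, Dohh, Eif5a and Eif5a2. Over all entries 57% were called higher, and the median of 0.31 lay near the 0.29 over all entries. Eif5a2, at 0.92 to 1.48 FPKM in sham, passed the filter only with the injured libraries. With median-ratio scaling 1 of the 4 was called, and Eif5a and Dohh turned to -0.14 and -0.11. Eif5a itself lay at 378.8 ± 10.2 FPKM in sham and 436.8 ± 24.2 FPKM in IR.

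**Figure D4:**
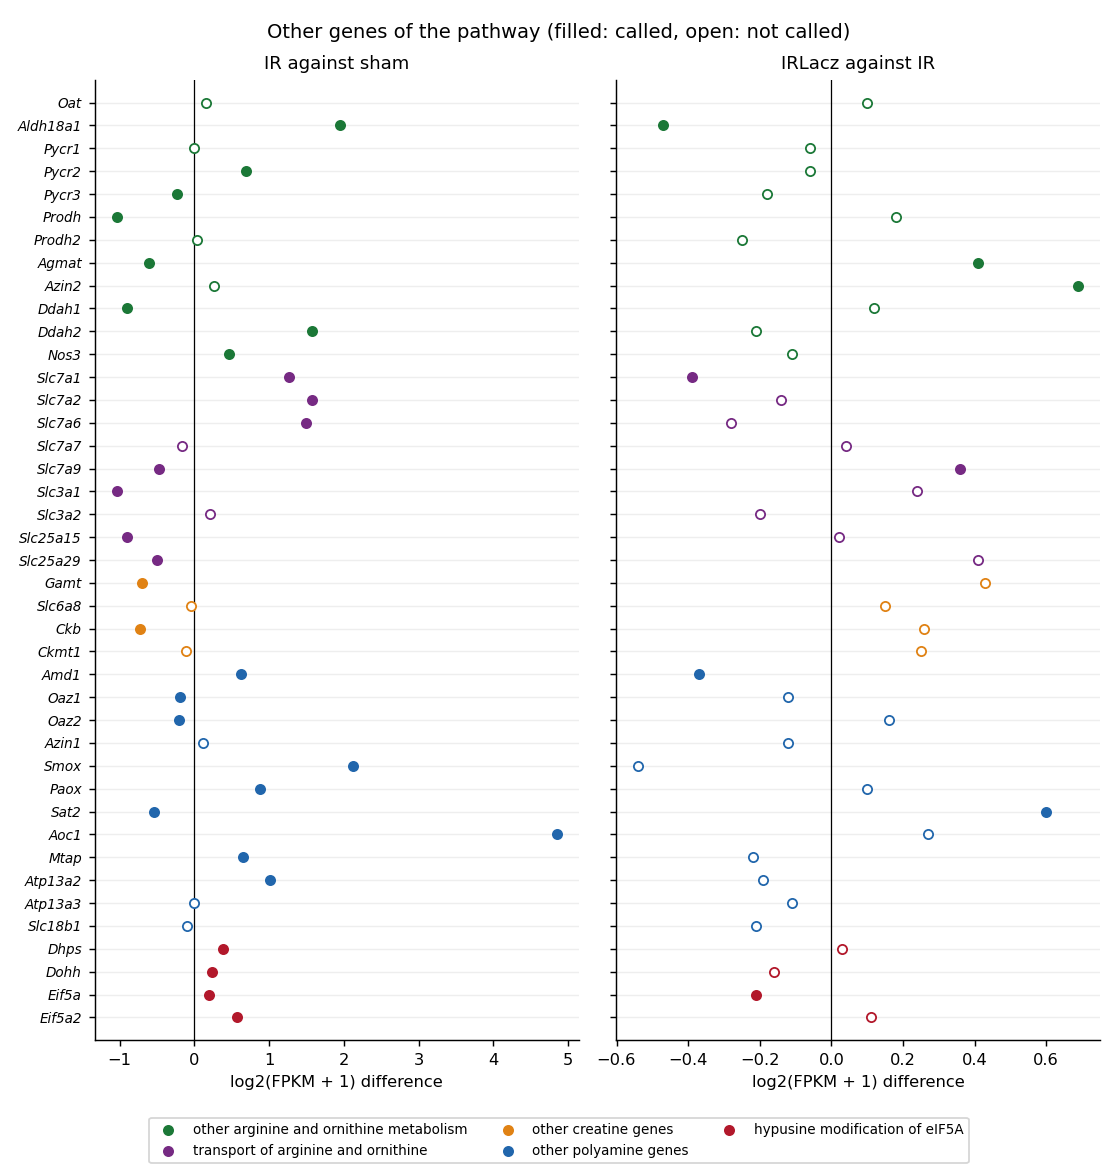
Log2(FPKM + 1) difference (horizontal axes, with different ranges) of the other tested pathway genes, coloured by list, for IR against sham (left) and IRLacz against IR (right); filled points were called at adjusted p under 0.05. Aoc1 (4.85) stands furthest right in the left panel, and 8 filled points remain in the right panel. Slc7a2 and Eif5a2 passed the filter only with the injured libraries. Both panels use the IR libraries.

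The gavage groups were compared with IR next. Both comparisons share the IR libraries. In IRLacz, Srm and Arg1 were lower than in IR, and none of the other 7 enzymes was called. This made 2 of 9, both lower, where 13.3% of all entries were called (5.39% higher and 7.92% lower). The median difference was 0.07 over the 9 enzymes and -0.00408 over all entries.

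Srm lay at 20.30, 19.19, 22.26 and 17.70 FPKM in IRLacz. Every one of these values was below the lowest IR library (27.91 FPKM), and 3 of the 4 fell within the sham range of 17.02 to 20.45 FPKM. The share of all entries whose IRLacz and IR libraries did not overlap was not computed. The log2 difference from IR was -0.69 (SE 0.12, interval -0.96 to -0.43, limma adjusted p = 0.0058, lower in 4 of 4 libraries). It lay between -0.75 and -0.6 in 20 alternative settings and was called in each, with adjusted p from 0.0015 to 0.021. Against sham the difference of IRLacz was 0.06 with an interval of -0.2 to 0.32 (adjusted p = 0.66), and with median-ratio scaling it was -0.27 (adjusted p = 0.086).

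Proliferation markers were lower in IRLacz, as Srm was. Sums of 5 proliferation markers were 35.84 to 56.25 FPKM in IR and 13.48 to 27.65 FPKM in IRLacz. The lowest sum was in IRLacz replicate 1, which stood apart, and the other IRLacz sums were 23.37 to 27.65 FPKM. Of the markers 5 of 5 were called lower, where 7.92% of all entries were. That count was not recomputed with single libraries left out. Tubular injury markers did not separate in this way: 1 of 8 was called lower. Their sums were 4930.06 to 16320.72 FPKM in IRLacz and 9749.75 to 13471.53 FPKM in IR. The entries most like Srm within groups were Mrpl38 (r = 0.89, rho = 0.85), Lsm12 (r = 0.89, rho = 0.85) and Eif5a (r = 0.87, rho = 0.78) over 19 libraries, after the group means were removed. Whether cell division has a part in the Srm difference was not tested.

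Arg1 lay at 1.14, 2.51, 1.11 and 6.10 FPKM in IRLacz. Replicates 1 to 3 were below every IR library, and replicate 4 lay inside the IR range of 4.02 to 13.21 FPKM. The mean was 0.291 of that in IR (log2 difference -1.57, SE 0.44, interval -2.5 to -0.64, limma adjusted p = 0.028). The call was lost without IR replicate 2 or 3 (adjusted p = 0.06 and 0.077) and without IRLacz replicate 1, 2 or 3 (0.081, 0.061 and 0.069), and kept without both libraries that stood apart (0.035). Macrophage marker sums were 552.25 to 1313.68 FPKM in IRLacz against 1358.43 to 1924.6 FPKM in IR, with the highest IRLacz sum in replicate 4, where Arg1 was highest. Where 7.92% of all entries were called lower, 6 of these 10 markers were. That count was 0 without IR replicate 3, 1 without IRLacz replicate 1, 3 without IR replicate 2 or IRLacz replicate 2, and 6 without both libraries that stood apart. Sums of 4 markers of alternatively activated macrophages (Chil3, Retnla, Mrc1 and Cd163) overlapped, at 5.85 to 14.64 FPKM in IRLacz and 11.02 to 17.06 FPKM in IR. Of the 2 tested among them, 0 were called. The part of macrophages in the Arg1 difference was not tested.

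The remaining 7 enzymes were not called in IRLacz against IR, which does not show that they were unchanged. Arg2 lay at 17.40, 25.24, 25.37 and 30.56 FPKM, on both sides of the IR libraries (difference 0.07, interval -0.33 to 0.47). The Arg2 to Arg1 ratio was 5.01 to 22.9 (median 12.7). Ass1 lay at 1348.86, 1049.44, 775.86 and 543.34 FPKM, spread more widely than IR (difference 0.3, interval -0.19 to 0.8, adjusted p = 0.39). Its order among the libraries was that of the early proximal tubule sums, 2471.8, 1879.2, 1566.53 and 1114.71 FPKM for replicates 1 to 4.

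Asl, at 124.92, 135.03, 127.30 and 118.60 FPKM, had an interval of 0.02 to 0.37, above 0, but an adjusted p of 0.12 in limma. Its mean of 126.5 FPKM lay between those of IR (110.3 FPKM) and sham (132.9 FPKM). With library weights Asl was called (0.24, limma adjusted p = 0.035). Gatm lay at 153.41, 126.99, 90.71 and 109.30 FPKM, with replicate 1 above every IR library and the others within the IR range (interval -0.33 to 0.51). Sat1 lay at 225.47, 253.32, 292.52 and 310.35 FPKM, and its difference of 0.01 had an interval of -0.2 to 0.22. Sms, at 7.92, 5.88, 6.18 and 5.51 FPKM, had its highest value in replicate 1 (difference 0.1, interval -0.12 to 0.31).

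Odc1 lay at 319.25, 150.17, 147.15 and 115.36 FPKM in IRLacz. Replicate 1 was above every IR library, replicates 2 and 3 lay at the low end of the IR range and replicate 4 below it. The difference was -0.03 (interval -0.49 to 0.43, limma adjusted p = 0.94), and without replicate 1 it was -0.33 (adjusted p = 0.18). In that library the Sat1 to Odc1 ratio was 0.706, against 1.69 to 2.69 in the other IRLacz libraries.

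**Figure D5:**
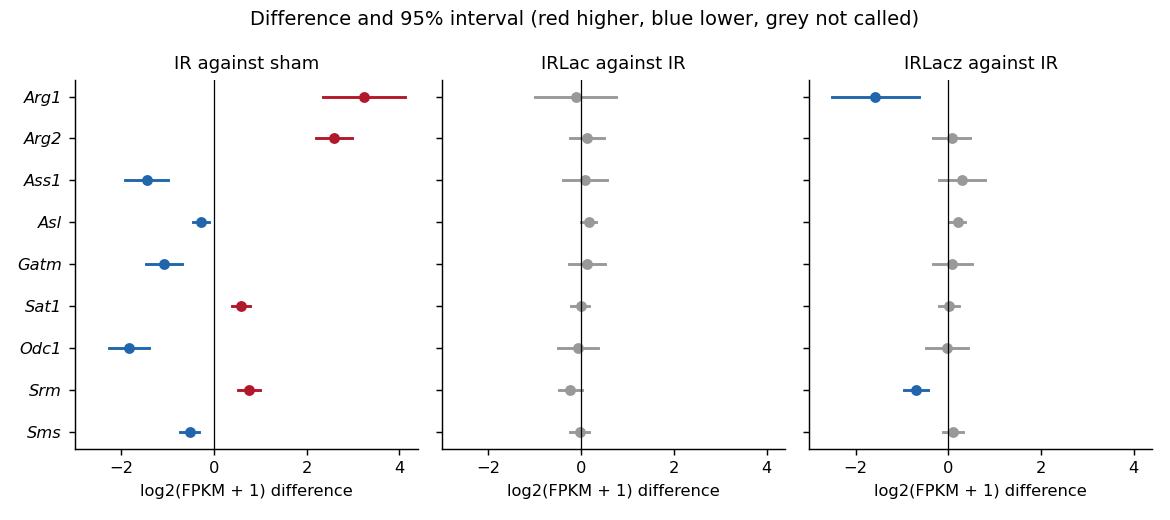
Log2(FPKM + 1) difference with its 95% interval (horizontal axis) for each enzyme in IR against sham, IRLac against IR and IRLacz against IR; red is called higher, blue called lower and grey not called. All 9 are coloured on the left (Arg1 had to differ there, having passed the filter only through the injured groups), none in the middle, and Arg1 (-1.57) and Srm (-0.69) on the right.

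Among the other pathway genes, 8 of 41 tested were called in IRLacz against IR, where 13.3% of all entries were. Azin2, which encodes an antizyme inhibitor, lay at 5.48, 8.01, 6.74 and 9.10 FPKM in IRLacz and at 4.36, 3.84, 3.44, 3.74 and 5.35 FPKM in IR. The groups lay close without overlapping (5.48 against 5.35 FPKM), and the difference was 0.69 (SE 0.17, limma adjusted p = 0.015). How many of all entries lay apart in this comparison was not counted. Sat2 lay at 15.27, 13.39, 12.48 and 12.58 FPKM in IRLacz and at 8.03, 6.63, 8.53, 9.67 and 10.17 FPKM in IR, again without overlap (difference 0.6, adjusted p = 0.015). Both calls held in each alternative setting run, but narrowly, with limma adjusted p of up to 0.049 for Azin2 and 0.043 for Sat2. The other 6 calls, each lost in at least 3 alternative settings, were those of Aldh18a1 (-0.47), Slc7a1 (-0.39), Amd1 (-0.37) and Eif5a (-0.21), which were lower, and of Agmat (0.41) and Slc7a9 (0.36), which were higher. By list, 2 of 12 arginine, ornithine and proline genes were higher and 1 lower, 1 of 9 carriers was higher and 1 lower, 0 of 4 creatine genes were called, 1 of 12 polyamine genes was higher and 1 lower, and 1 of 4 hypusine genes was lower (medians -0.06, 0.02, 0.25, -0.12 and -0.07). Aoc1 (90.72 ± 40.1 against 68.5 ± 15.2 FPKM) and Smox (15.7 ± 5.36 against 22.43 ± 2.99 FPKM) were not called, with adjusted p of 0.6 and 0.072.

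IRLac was set against IR in the same way. None of the 9 enzymes was called by limma there, where 0.00736% of all entries were (1 of 13594), and 786 entries had an unadjusted p under 0.05. Arg1 lay at 18.86, 12.51, 2.25, 10.55 and 4.66 FPKM, on both sides of the IR range, and its low library was replicate 3 (difference -0.12, interval -0.99 to 0.76). Srm lay at 31.86, 26.73, 27.11, 34.12 and 20.51 FPKM, with replicate 5 near the sham range (difference -0.23, interval -0.48 to 0.01, adjusted p = 0.9). Arg2, at 16.23, 31.31, 19.66, 29.21 and 34.10 FPKM, ran both below and above IR (difference 0.12).

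For the synthesis enzymes, IRLac values overlapped IR. Ass1 lay at 923.47, 655.63, 1096.63, 614.06 and 601.67 FPKM, Asl at 140.86, 130.46, 132.82, 102.48 and 112.78 FPKM, and Gatm at 176.18, 137.11, 137.03, 82.96 and 93.23 FPKM. In all 3, replicates 4 and 5 were the lowest. Odc1 lay at 178.39, 186.75, 182.30, 156.28 and 128.67 FPKM, Sms at 5.83, 4.66, 5.90, 5.81 and 6.37 FPKM, and Sat1 at 293.31, 266.37, 236.32, 278.17 and 250.76 FPKM. Differences of these 6 from IR lay between -0.06 and 0.16.

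A direct comparison of the gavage groups tested whether they differed from each other. None of the 9 enzymes was called between IRLacz and IRLac by limma, where 0.0221% of all entries were (3 of 13594, with 2171 at an unadjusted p under 0.05). Srm was lower in IRLacz by a difference of -0.46 (interval -0.72 to -0.2, unadjusted p = 0.0015, adjusted p = 0.11) and Arg1 by -1.46 (interval -2.39 to -0.53, unadjusted p = 0.004, adjusted p = 0.14). Without IRLac replicate 3, Arg1 was called (-1.82, adjusted p = 0.021). It was also called with library weights (-1.69, adjusted p = 0.04), while Srm was called in none of 20 alternative settings (adjusted p from 0.057 to 0.44).

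Compared with sham, most of the injury pattern was present in both gavage groups. Arg1 is again left out of the counts. In IRLacz, 6 of the other 8 enzymes were called, 2 higher and 4 lower, where 70.3% of all entries were (56.9% higher and 13.5% lower, that is 7729 and 1834, or 4097 and 4347 with median-ratio scaling). The exceptions were Srm and Asl (-0.07, adjusted p = 0.46). The differences of IRLacz from sham were 2.66 for Arg2, -1.86 for Odc1, -1.15 for Ass1, -0.98 for Gatm, -0.43 for Sms and 0.6 for Sat1, beside 2.59, -1.83, -1.45, -1.07, -0.52 and 0.59 for IR, with the sham libraries shared. For Arg1 the difference was 1.66, or 0.57 with a pseudocount of 5. In IRLac, 7 of the 8 were called, 3 higher and 4 lower, where 74.8% of all entries were (58% higher and 16.8% lower, that is 7885 and 2285, or 4489 and 4689 with median-ratio scaling). The exception was Asl (-0.11, adjusted p = 0.22). Srm was higher than in sham by 0.53 (adjusted p = 0.00055), a call lost with median-ratio (0.18, adjusted p = 0.21) and quantile scaling (0.28, adjusted p = 0.051). With median-ratio scaling Asl was lower than in sham in both groups (-0.42 and -0.47, adjusted p = 0.0017 and 0.00035).

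Within groups, the enzymes of arginine and creatine synthesis varied together. After group means were removed, the correlation over 19 libraries was r = 0.82 (rho = 0.74) for Asl with Gatm, r = 0.76 (rho = 0.82) for Ass1 with Gatm and r = 0.71 (rho = 0.63) for Ass1 with Odc1, the last falling to 0.6 without IRLacz replicate 1. Ass1 ran against Sat1 (r = -0.73, rho = -0.62) and Arg2 (r = -0.64, rho = -0.62). Arg1 and Arg2 shared little (r = 0.17, rho = 0.26). These are descriptions over libraries that also share library size and cell makeup.

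The entries of most similar pattern differed between the enzymes by the same measure. Ass1 was closest to Cela1, Sord and Slc34a1, the last a phosphate transporter gene of the proximal tubule (r = 0.98 each). Gatm was closest to Cyp2d26 (0.93), Prodh (0.9) and C2cd2l (0.9), and Asl to Clec2h (0.87), Slc7a9 (0.85) and Gcat (0.83). For Arg1 they were the chemokine gene Ccl6 (0.93), the collagen gene Col5a1 (0.9) and Fubp3 (0.89), and for Arg2 Armcx1 (0.86), the glutamine transporter gene Slc1a5 (0.84) and Cadps2 (0.84). Sat1 was closest to Tfdp1 (0.93), Hnrnpab (0.92) and Vasp (0.91), and Sms to Chd3 (0.86), Smim10l1 (0.83) and 0610009B22Rik (0.83). For Odc1, Gatad1 (0.88) and Ces2c (0.86) dropped to 0.68 and 0.77 without IRLacz replicate 1.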

How the data were processed

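The authors deposited 1 table of FPKM values with a column per library, made with HISAT, StringTie 1.0.4 and build mm9 as far as the submitters' processing notes list tools and builds. RNA was extracted with Trizol and libraries followed an Illumina protocol, per the labels' protocols. None of the sources used here gives the annotation, strand or treatment of shared reads.

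Gene IDs were matched to RefSeq symbols (18238 of 19287 entries). The test was that of limma 3.58.1 (R 4.3.3, trend option on) after log2(FPKM + 1) transformation. A single model held all 19 libraries (15 residual degrees of freedom) and the 13594 entries that reached 1 FPKM in 4 or more libraries, with Benjamini-Hochberg adjustment per comparison and a threshold of 0.05. The steps were tested on simulated data. Alternatives were the pseudocount, the filter, TPM, median-ratio and quantile scaling, a model of 2 groups, library weights, a replicate block and leaving out each library; leaving out both libraries that stood apart was added after the data were seen. FPKM totals (545590 to 584798) do not measure depth. All 9 enzymes were named in each comparison, pathway genes where they were called or were the most changed of a list, and for each enzyme the 3 entries most like it, of which 1 is not reported here. The enzymes and lists were chosen with earlier results of these data known. The authors' other deposited tables, on transcription factors, were not used here.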

Additional observations from a re-analysis of the deposited data

Results flagged for a closer look

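Odc1 was at 319.25 FPKM in IRLacz replicate 1, and the other 3 libraries of that group lay between 115.36 and 150.17 FPKM. The gap to the nearest of them was 0.829 of the group's whole range, just past the limit for 4 samples. It was the 1 such case among 36 sets of values (9 enzymes in 4 groups), and chance gives about 5% of such sets. The same library stood apart on the first principal component.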

How the results depend on the processing

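Of 1098 recomputed differences of the 9 enzymes, 1085 kept their side of the threshold, 8 lost a call, 5 gained one and 0 called ones changed sign; 51 that were never called crossed 0. The lost calls were those of Arg1 and Srm given above. Members called ranged from 1 to 2 for IRLacz against IR and from 0 to 1 for IRLacz against IRLac when single libraries were left out, and library weights gave 1 in the second. Among other pathway genes 7 of 2474 values turned in IR against sham: Oat (-0.18), Azin1 (-0.22), Atp13a3 (-0.33), Dohh (-0.11) and Eif5a (-0.14) with median-ratio scaling, and Nos3 (-0.04) and Atp13a3 (-0.29) with quantile scaling.

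Counts over all entries moved more. IRLacz against IR (1809) gave 885 in a model of 2 groups, 2978 with library weights and 603 to 2195 without single libraries. IRLac against IR (1) gave 0 with a pseudocount of 5, a mean of at least 5 FPKM, library weights, the replicate block or without both libraries that stood apart, and 0 to 116 without single libraries. IRLacz against IRLac (3) gave 1 with a pseudocount of 0.1, 0 with a pseudocount of 5 or a mean of at least 5 FPKM, 5 without a filter, 10 with median-ratio and 5 with quantile scaling, 1 in a model of 2 groups, 167 with library weights, 1 with the replicate block, 86 without both libraries that stood apart, and 1 to 490 without single libraries. The cause was not tested. Replicate numbers did not pair the libraries (27 same-number pairs, r from -0.394 to 0.23; 3 of 19 libraries closest to their own number). The block changed no call among the 9 enzymes, with Srm at -0.75 (adjusted p = 0.0086) and Arg1 at -1.59 (adjusted p = 0.044) in IRLacz against IR. Depth is unknown and limits the precision of low values such as Arg1 in sham.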
